A study of Eragrostis tef with 16 samples.

Results

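The comparison described here is that of ConR with ConS, the roots and shoots of tef (Eragrostis tef) plants grown at the control level of calcium, and its members are 8 of the 16 RNA-seq libraries of the study, 4 of ConR and 4 of ConS. Tef is a small-grained cereal of the Horn of Africa. Plants of 1 accession, chosen for its high seed Ca content, were raised for about a month in an aerated Hoagland solution. It held Ca at 1 mM (control) or at 0.01 mM (low Ca2+), and root and shoot samples were taken. The other 8 libraries are the low Ca2+ roots (LCR) and low Ca2+ shoots (LCS), 4 of each. Libraries are named by their S numbers, with ConR holding S9 to S12 and ConS S13 to S16. The paper describes them as independent biological replicates. Library totals ran from 11587068 to 17659238 counts in ConR and from 14640539 to 15590039 in ConS. Normalized counts are in CPM, the usual depth-corrected unit, on library totals scaled by the TMM method, and log2FC is the log2 fold change of ConR over ConS, so that a positive value means higher in roots.

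Roots take up water and mineral ions from the solution and load them into the xylem, while the green shoot carries out photosynthesis, which relies on a small number of very abundant messengers. Calcium enters the cytosol through channels such as the glutamate receptor-like channels (GLRs) and the cyclic nucleotide-gated channels (CNGCs), is removed again by Ca2+-ATPases and cation exchangers, and is read by calcium-binding proteins (CBPs) and calcium-dependent protein kinases (CDPKs). Grasses take up iron as a complex with small chelating molecules that they release from the root, and transporters of the yellow stripe-like (YSL) family carry such complexes.

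Libraries of 1 tissue resembled each other far more than libraries of the other tissue. Across genes, log2 CPM correlated at 0.956 to 0.987 between pairs of ConR libraries, at 0.964 to 0.982 between pairs of ConS libraries and at 0.710 to 0.789 between a root and a shoot library. Genes are not independent replicates, and these values are descriptions. Within the tissues, ConR S11 stood apart from the other 3 libraries (by Dixon's gap rule at the 95% level) in 1767 of 36221 genes with a mean of at least 1 CPM, against 169 to 500 genes for each of the other ConR libraries. In shoots, ConS S15 stood apart in 981 of 33574 genes and ConS S16 in 829, against 224 and 254 for the other ConS libraries. The part of these libraries in single results was measured by leaving them out, and listed genes whose value moved by over 1.5 times are given with the value so obtained. The tissue labels could not be checked against marker genes, because no source used here names photosynthesis or root genes of this annotation.

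Close to 1 in 2 of the genes tested differed between roots and shoots, many of them by large factors. By edgeR's quasi-likelihood test, 29739 of 56746 genes tested differed at a Benjamini-Hochberg adjusted p below 0.05, which is 52.4% of the genes. Of these, 16301 were higher in roots (28.7% of the genes tested) and 13438 were lower in roots (23.7%). The median log2FC was 2.39 among the former and -2.13 among the latter, and 0.10 over all genes tested. The last value lies near 0 largely by construction, because TMM scaling assumes that most genes do not differ. The TMM factors were 1.161 to 1.218 in ConR and 0.688 to 0.844 in ConS. With ConR S11 left out the number of genes called was 28599, with ConS S15 left out it was 27880, and with both left out 27075. In bulk tissue, fewer cells of a type and less RNA per cell cannot be told apart.

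A difference of at least 4-fold was seen for 9319 of the genes called higher in roots (57.2%) and 7048 of those called lower (52.4%). At least 32-fold differences were seen for 2434 (14.9%) and 2174 (16.2%). For 13869 genes called higher in roots, every ConR library lay above every ConS library, and for 11680 genes called lower, every ConR library lay below. Such separated calls make up 45% of the genes tested and 85.9% of the genes called. Called or not, every ConR library lay above every ConS library in 14574 genes (25.7% of those tested) and below in 12532 (22.1%).

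The direction of the difference varied with the level of the gene. Among the 11204 genes with an average log2 CPM over the 16 libraries from 0 to 2, 40% were called higher in roots and 20.9% lower. Among the 2854 genes with an average of 6 and above, the order was the opposite, with 31.5% higher in roots and 42% lower. The median log2FC of the genes called in this top class was 1.36 for those higher in roots and -2.89 for those lower. These averages include the ConR and ConS libraries compared, so a gene's class is not independent of its difference. Below an average log2 CPM of -2, only 7.13% of 6588 genes were called in either direction, where counts are few.

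**Figure D1:**
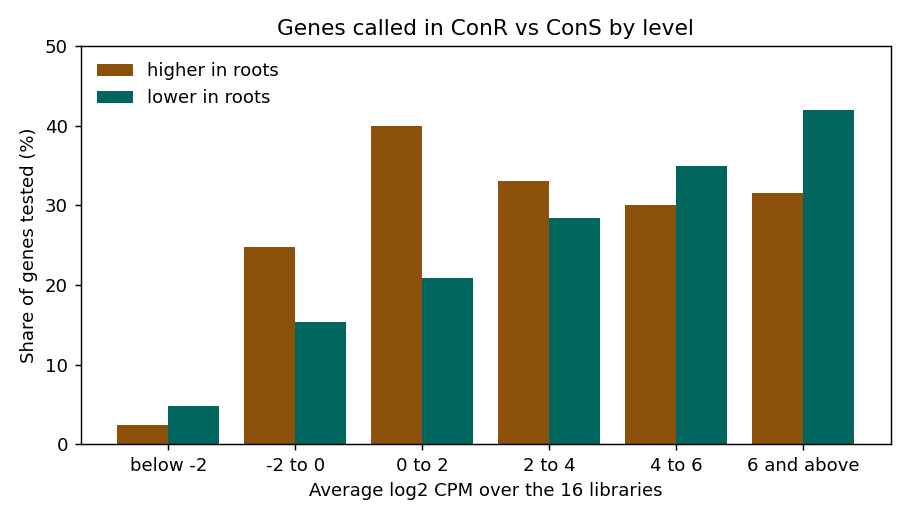
Share of genes called in ConR vs ConS (percent of the genes tested, vertical axis) in 6 classes of average log2 CPM (horizontal axis), brown for higher and teal for lower in roots. The brown bar is the taller one from -2 to 4, and the teal bar from 4 upwards and below -2. In the top class 42% of the genes were lower in roots.

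Shoot libraries held their counts in far fewer genes than root libraries. The 100 genes of highest count took 12.2%, 12.6%, 12.7% and 11.9% of all counts in ConR S9 to S12. In ConS S13 to S16 they took 24.4%, 25.4%, 26.9% and 21.6%. The lowest shoot library, S16, was thus well above every root library, and the root libraries differed by under a percentage point. The 95% Wilson interval of such a share is at most 0.027 percentage points to either side, and it covers counting error only, since the reads carry no molecular identifiers. The difference of the means was -12.2 percentage points (12.3 ± 0.36 in ConR and 24.6 ± 2.23 in ConS, SD, n = 4; exact permutation test, two-sided, p = 0.0286, adjusted 0.0286 over 5 measures). This is the smallest p that 4 libraries against 4 allow.

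The other 4 measures gave the same order with no overlap, each with an exact permutation p of 0.0286. The top 10 genes held 2.898% ± 0.364 of the counts in ConR and 7.71% ± 0.867 in ConS, and the top 1000 held 33.9% ± 0.351 and 48.4% ± 2.26 (SD, n = 4). To reach 50% of the counts took 2605 to 2676 genes in the ConR libraries and 919 to 1372 in the ConS libraries. After thinning every library to 11587068 counts, 50196 to 50767 genes had a count in ConR and 46944 to 47812 in ConS. ConS S15 was the most concentrated library on each of these measures and ConS S16 the least concentrated of the shoots. At low Ca2+ the top 100 genes held 11.3% to 13.4% of the counts in the LCR libraries and 15.96% to 23.7% in the LCS libraries.

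**Figure D2:**
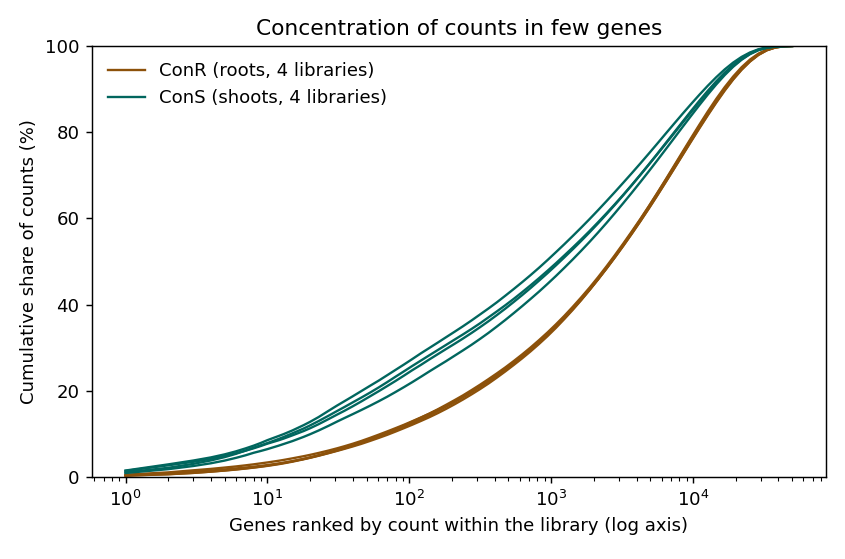
Cumulative share of counts (percent, vertical axis) held by genes ranked by their count within each library (horizontal axis, log scale), 1 line per library. The 4 ConS lines (teal) run above the 4 ConR lines (brown), with 21.6% to 26.9% against 11.9% to 12.7% of the counts at the 100th gene.

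The genes at the top were different ones in each tissue. Only 7 genes were among the 100 of highest mean share in both. The 100 top genes of ConS held 21.2% to 26.7% of the counts in ConS libraries and 1.24% to 1.76% in ConR libraries, and 96 of them were called lower in roots, against 23.7% of all genes tested. The 100 top genes of ConR held 11.4% to 12.3% of the counts in ConR and 2.33% to 3.95% in ConS, and 84 of them were called higher in roots, 4 were called lower and 12 were not called. Because these genes were picked by their level in 1 of the tissues compared, their differences are a description. Together, the genes called higher in roots held 48.7% to 52.4% of the counts in ConR and 8.62% to 12.7% in ConS, and those called lower in roots held 62.7% to 71.7% in ConS and 15.8% to 17.2% in ConR.

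No source used here names most of these genes, and 2 per direction are given by identifier, the most abundant ones with separated libraries. Et_9A_061784 had a normalized count of 18280, 14050, 22690 and 11630 CPM in ConS S13 to S16 and 172.2, 217.9, 228.1 and 402.0 CPM in ConR S9 to S12, and it alone took 0.981% to 1.56% of the counts of a shoot library. Its log2FC was -6.03 ± 0.463 (SE, adjusted p = 2.52e-09). Et_9B_064367 had 10570 to 20770 CPM in ConS and 101.7 to 220.8 CPM in ConR, a log2FC of -6.68 ± 0.474 (SE, adjusted p = 8.5e-10). Both were highest in ConS S15 and lowest in ConS S16. In roots, Et_6A_046619 had 3425, 2719, 4569 and 3257 CPM in S9 to S12 and 14.2 to 18.6 CPM in ConS, a log2FC of 7.69 ± 0.383 (SE, adjusted p = 8.44e-12). Et_1A_008739 had 2477 to 5096 CPM in ConR and 78.1 to 210.3 CPM in ConS, a log2FC of 4.94 ± 0.436 (SE, adjusted p = 1.7e-08). Gene lengths were not at hand, so levels are not compared between genes.

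Few genes without a single count in 1 tissue reached 1 CPM in every library of the other. A total of 4638 genes had a count in ConR and none in ConS, and 3445 had a count in ConS and none in ConR. With a count of 0 in all 4 ConS libraries and at least 1 CPM in each ConR library, 78 genes were root-only, and with the tissues exchanged 46 were shoot-only. Their mean level was 1.11 to 13.2 CPM (median 2.56) for the root-only genes and 1.34 to 16.6 CPM (median 2.895) for the shoot-only genes, so that 1 and 5 of them reached 10 CPM. They held 0.026% to 0.0368% of the counts in ConR and 0.0146% to 0.0183% in ConS. Against a floor of 3 counts over the 4 libraries of the other tissue (0.0635 CPM in ConS and 0.0452 CPM in ConR), the root-only genes were at least 17.5-fold higher in roots and the shoot-only genes at least 29.5-fold higher in shoots, with medians of 40.3 and 64.0. None of the genes listed by the study was among them.

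The number of such genes depended on how absence was defined. With up to 3 counts allowed in the other tissue there were 669 root-only and 308 shoot-only genes, and with at least 5 CPM required in each library 4 and 6. Leaving out ConS S13, S14, S15 or S16 gave 140, 131, 129 or 144 root-only genes, and leaving out ConR S10, S11 or S12 gave 77, 76 or 74 shoot-only genes. With ConR S11 and ConS S15 both left out there were 146 and 83. Leaving out a library relaxes the definition and can only keep or add genes, so these rises do not single out a library. Of genes with at least 1 CPM in every ConR library, 1867 had a mean at least 32-fold above that of ConS, and 1926 did in the opposite direction. At low Ca2+, 72 of the 78 root-only genes had a count in at least 1 LCS library and 35 of the 46 shoot-only genes had one in at least 1 LCR library, but none reached 1 CPM in all 4. In their own tissue at low Ca2+, 61 of the 78 and 32 of the 46 kept at least 1 CPM in every library. The genes were chosen by their counts in the control libraries, so some change in other libraries follows from the choice. An effect of Ca2+ on these genes was not tested.

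The tef genome is composed of an A and a B subgenome, and gene identifiers carry a label such as 3A or 3B. Of 28213 genes with an A label, 29.2% were called higher in roots and 23.6% lower, and of 27515 with a B label, 28.9% and 23.7%. Over the 20 labels from 1A to 10B, the share called was 50.4% to 55.9%, and the share higher in roots ran from 26.3% (4B, with 25.9% lower) to 33.8% (6A, with 20.9% lower). Of the 78 root-only genes 47 had an A and 30 a B label, and of the 46 shoot-only genes 22 and 20. The 1018 genes with the label Un had 36% called, with 11.7% higher in roots and 24.3% lower. Among the top 100 genes of ConS 49 had an A and 50 a B label, and among those of ConR 51 and 47.

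The study lists calcium transporters, channels, metal transporters and calcium signaling genes by identifier, and 84 of them were called (77.1% of the list, against 52.4% of all genes tested), 39 of them higher and 45 lower in roots. In 74 of the 84 the libraries did not overlap, about the share among all genes called (85.9%). Over the list, the absolute log2FC had a median of 1.41, against 1.11 for all genes tested. Of all genes tested, 7.13% were called below an average log2 CPM of -2 and 61.5% from 2 to 4. Neither the list nor its families were matched to all genes for level. The study chose this list on these samples, so its share of calls is not independent evidence. With ConS S15 left out, 37 were higher and 41 lower, with ConR S11 left out 38 and 46, and with both left out 38 and 42. Under other scalings, filters, tools and omissions, 74 of the 84 genes kept their call in every case.

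**Figure D3:**
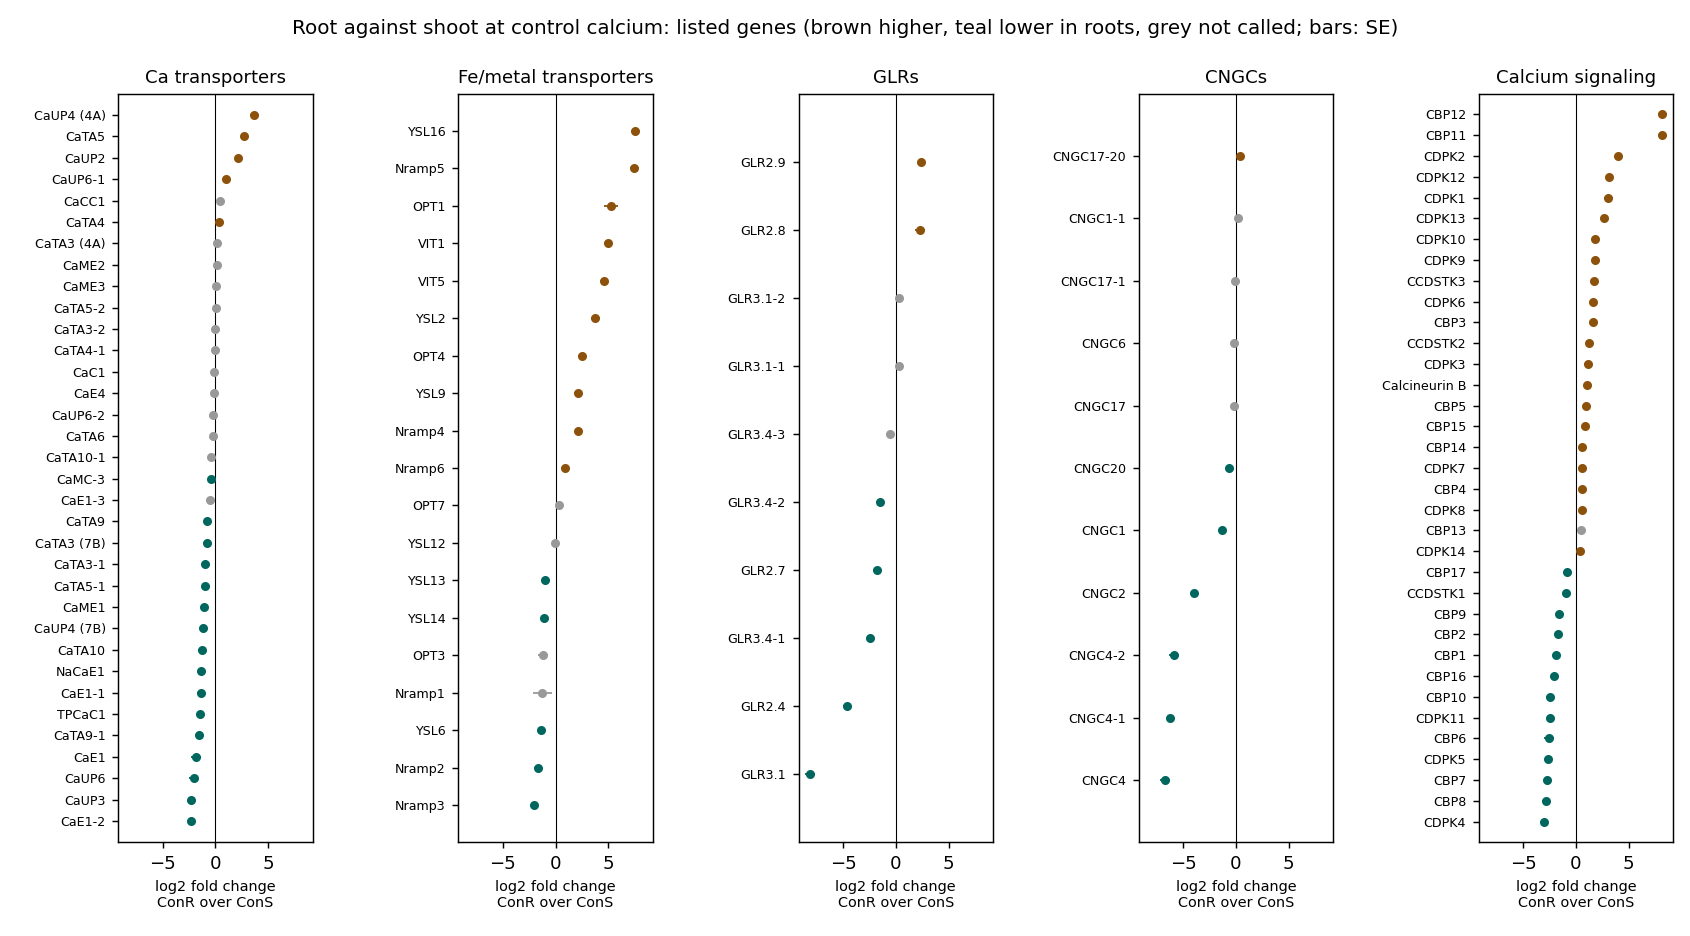
Log2 fold change of ConR over ConS (horizontal axis) of the listed genes in 5 families, 1 row per gene, with the standard error as a bar where it exceeds the point. Brown points were called higher in roots (39), teal points lower (45) and grey points were not called (25), and the metal transporters and signaling genes reach furthest to the right, the GLRs and CNGCs furthest to the left.

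The families were described by their counts and were not tested against each other. Over all genes tested, 28.7% were higher and 23.7% lower in roots. Of 19 Fe/metal transporters 10 were higher and 5 lower in roots (median log2FC 0.88), and of 35 calcium signaling genes 21 were higher and 13 lower (median 0.60). Of 10 GLRs 2 were higher and 5 lower (median -1.01), of 11 CNGCs 1 was higher and 6 lower (median -0.68), and of 34 calcium transporters 5 were higher and 16 lower (median -0.42). The median over all genes tested was 0.10. Summed over the family, the metal transporters had 1856 to 2564 CPM on unscaled totals in ConR libraries and 521.8 to 906.7 in ConS libraries, and the GLRs had 98.99 to 127.6 and 260.5 to 487.4. Neither pair of ranges overlapped, with or without the TMM scaling. The CNGC sum overlapped on unscaled totals (162.5 to 215.1 in ConR and 174.8 to 217.9 in ConS) and was lower in every ConR library with TMM scaling (138.8 to 176.6 and 234.6 to 270.9). The calcium transporters as a sum had, with TMM scaling, 1127 to 1251 CPM in ConR and 1185 to 1747 CPM in ConS, which overlap, and in CPM on unscaled totals their order was the reverse, with 1361 to 1510 in ConR and 980.5 to 1202 in ConS.

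Among the metal transporters, the differences reached over 100-fold in favour of roots. By subfamily, both vacuolar iron transporters (VIT) were higher in roots, and of 4 OPTs 2 were higher and none lower. Of 7 YSLs 3 were higher and 3 lower, and of 6 Nramps 3 were higher and 2 lower. Of all genes tested, 28.7% were higher and 23.7% lower in roots. Nramp5 (Et_5A_041086), a member of the NRAMP family whose rice namesake takes up manganese and cadmium at the root surface, had 242.8, 255.4, 154.5 and 262.0 CPM in ConR S9 to S12 and 1.76, 1.36, 1.54 and 0.532 CPM in ConS S13 to S16. Its log2FC was 7.46 ± 0.424 (SE, adjusted p = 4.33e-11). YSL16 (Et_3B_031448) had 191.0, 201.0, 98.2 and 161.5 CPM in ConR and 1.09, 0.935, 0.676 and 0.76 CPM in ConS, a log2FC of 7.54 ± 0.364 (SE, adjusted p = 6.12e-12). For both genes ConR S11 was the lowest root library and still lay far above every shoot library.

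The vacuolar iron transporters, which move iron from the cytosol into the vacuole, differed alike. VIT1 (Et_2B_020454) had 305.2, 279.4, 184.5 and 229.5 CPM in ConR and 6.70, 5.53, 13.04 and 6.54 CPM in ConS, and VIT5 (Et_7B_055732) had 127.3, 113.7, 171.4 and 102.5 CPM in ConR and 3.77, 4.51, 8.88 and 4.86 CPM in ConS. Their log2FC values were 4.98 ± 0.35 (SE, adjusted p = 7.54e-10) and 4.55 ± 0.338 (SE, adjusted p = 1.61e-09). In shoots both were highest in ConS S15.

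Other members higher in roots were YSL2 (Et_1A_008454), with 118.9 to 294.5 CPM in ConR and 13.7 to 16.3 CPM in ConS, and YSL9 (Et_7A_052425), with 392.6 to 879.3 CPM and 124.8 to 156.1 CPM. YSL9 was the only listed gene among the 100 of highest mean share in ConR, at rank 81. The peptide transporter family members OPT1 (Et_8A_058302) and OPT4 (Et_1B_013097) had log2FC values of 5.23 (adjusted p = 3.16e-06) and 2.50 (adjusted p = 4.94e-05), and OPT1 rested on 6 counts in all of ConS. Without ConR S11 and ConS S15 the log2FC of OPT4 was 1.75. Nramp4 (Et_3B_028366) was the most even member, with 15.5 to 18.6 CPM in ConR and 3.69 to 3.96 CPM in ConS, a log2FC of 2.11 ± 0.154 (SE, adjusted p = 1.19e-09).

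The opposite direction was smaller. Nramp3 (Et_2B_020954) had 5.71, 7.86, 9.97 and 8.79 CPM in ConR and 37.9, 32.6, 35.4 and 28.7 CPM in ConS, a log2FC of -2.06 ± 0.208 (SE, adjusted p = 1.11e-07). Nramp2 (Et_4A_034655) had 82.5 to 139.2 CPM in ConR and 211.7 to 632.0 CPM in ConS (log2FC -1.67, adjusted p = 9.25e-04), where the highest value was that of ConS S15. YSL6, YSL14 and YSL13 had log2FC values of -1.43, -1.09 and -0.998, each without overlap.

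In some members the call or the direction hung on the setting or on a single library. Nramp6 (Et_10B_003591) was called higher in roots (log2FC 0.88, edgeR adjusted p = 0.029) with overlapping libraries. It lost the call under 6 of 18 alternatives. OPT3 (Et_4A_033828), whose Arabidopsis namesake loads iron into the phloem, had 19.3, 14.3, 79.9 and 18 CPM in ConR and 76.8, 71.2, 112.7 and 33.0 CPM in ConS. It was not called (log2FC -1.16, standard error 0.481, adjusted p = 0.0515), while without ConR S11 the log2FC was -2.09 (adjusted p = 0.000162), and over all alternatives its adjusted p ran from 0.000162 to 0.143. Without ConS S16 it was called too, with a log2FC of -1.40 (adjusted p = 0.0213). In all it was called under 8 of 18 alternatives, which include DESeq2 (adjusted p = 0.0363), limma-voom (0.0159), no filter on low counts (0.0462) and the filterByExpr filter of edgeR (0.0485). Nramp1 (Et_5A_041073) had 117.6 CPM in ConS S15 and 1.52 to 15.2 CPM in the other ConS libraries, beside 4.49 to 33.4 CPM in ConR. Its log2FC of -1.24 (adjusted p = 0.241) turned to 0.86 (adjusted p = 0.316) without ConS S15.

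GLR3.1 (Et_7A_052266) had the largest difference in favour of shoots among the listed genes. GLR channels conduct calcium on binding amino acids, and GLR3.1 of Arabidopsis is known for stomatal control and for signals that spread from wounds. The tef gene had 336.7, 265.5, 415.1 and 142.3 CPM in ConS S13 to S16 and 0.598, 1.12, 1.08 and 1.42 CPM in ConR S9 to S12. Its log2FC was -8.09 ± 0.492 (SE, adjusted p = 1.06e-10). The genes named GLR3.1-1 and GLR3.1-2 had log2FC values of 0.33 (adjusted p = 0.186) and 0.35 (adjusted p = 0.269) with overlapping libraries, so that the 3 genes of this name did not share the pattern.

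Clade 2 of the GLRs was divided. GLR2.4 (Et_2A_016261) had 13.8, 13.6, 13.5 and 11.4 CPM in ConS and 0.199, 0.439, 0.961 and 0.496 CPM in ConR, a log2FC of -4.61 ± 0.37 (SE, adjusted p = 4.75e-09). GLR2.8 (Et_2A_018316) and GLR2.9 (Et_2A_018314) were higher in roots, with 2.84 to 8.77 CPM against 0.483 to 2.13 CPM and with 6.79 to 11.9 CPM against 1.29 to 2.18 CPM. Their log2FC values were 2.32 (adjusted p = 6.09e-04) and 2.42 (adjusted p = 3.52e-08). GLR3.4-1 (Et_2A_016906) was lower in roots with 16.2 to 19.1 CPM against 84.2 to 110.0 CPM (log2FC -2.44, adjusted p = 6.69e-08). GLR2.7 (Et_1A_006195) had 12.2 to 31.0 CPM against 32.2 to 116.0 CPM, and GLR3.4-2 (Et_5B_043951) 12.02 to 14.3 CPM against 17.0 to 51.5 CPM. Without ConS S16 the log2FC of GLR2.8 was 2.997. The log2FC of GLR2.7 and GLR3.4-2 was -1.77 and -1.52. All 7 called GLRs had separated libraries, as had 85.9% of all genes called.

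Of the 11 CNGCs, 63.6% were called, against 52.4% of all genes tested. Of the 6 that were lower in roots, 3 had under 1 CPM in every ConR library. CNGC2 and CNGC4 of Arabidopsis act together in calcium signals during defence. CNGC4 (Et_3B_029538) had 14.1, 14.03, 17.3 and 9.80 CPM in ConS and 0.133, 0.195, 0 and 0.142 CPM in ConR, which is 8 counts in all of ConR. CNGC4-1 (Et_4B_037294) had 14.97 to 17.3 CPM in ConS and 0.0664 to 0.284 CPM in ConR, and CNGC4-2 (Et_9B_064738) had 9.04 to 13.9 CPM and 0.0709 to 0.398 CPM. The log2FC values were -6.73 ± 0.453 (SE, adjusted p = 4.21e-10), -6.21 ± 0.29 (SE, adjusted p = 4.06e-12) and -5.84 ± 0.445 (SE, adjusted p = 2.27e-09), and that of CNGC4-2 was -6.44 without ConR S9.

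CNGC2 (Et_4B_038004) had 31.9, 25.7, 19.6 and 16.4 CPM in ConS and 2.66, 1.02, 1.32 and 1.20 CPM in ConR. CNGC1 (Et_2A_016805) was lower in roots by a smaller factor, with 12.4 to 14.4 CPM against 28.1 to 39.4 CPM and a log2FC of -1.29 ± 0.164 (SE, adjusted p = 2.18e-06). CNGC17, CNGC17-1, CNGC1-1 and CNGC6 were not called, with log2FC values from -0.21 to 0.20 and overlapping libraries. The calls of CNGC20 (-0.68) and of Et_2A_017586, listed as CNGC17-20 (0.44), had overlapping libraries and were lost under 7 and 5 of 18 alternatives.

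**Figure D4:**
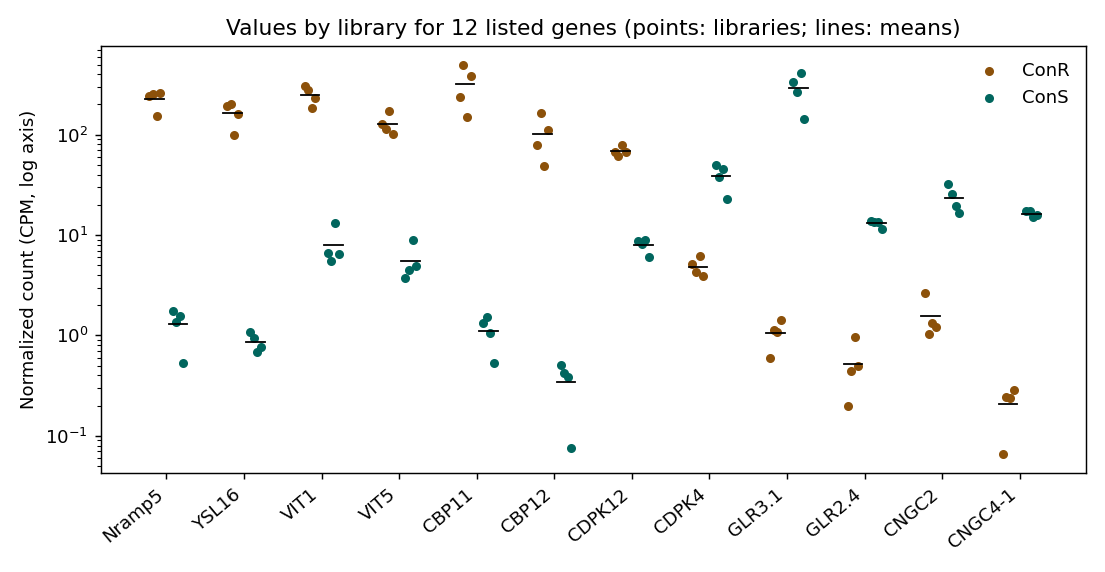
Normalized counts (CPM, vertical axis, log scale) of 12 listed genes in the 4 ConR (brown) and 4 ConS (teal) libraries, 1 point per library and a line at each mean. Nramp5, YSL16, VIT1, VIT5, CBP11, CBP12 and CDPK12 lie higher in roots and CDPK4, GLR3.1, GLR2.4, CNGC2 and CNGC4-1 higher in shoots, with no overlap in any of them.

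The calcium transporters had a median absolute log2FC of 0.90, below the 1.11 of all genes tested, which were not matched for level. Of 14 Ca2+-ATPases, which pump calcium out of the cytosol, 2 were higher and 6 lower in roots (57.1% called, near the 52.4% of all genes tested). Of the 2 higher, CaTA4 (log2FC 0.32) lost the call under 13 of 18 alternatives. Among the lower ones, CaTA10 and CaTA3 of 7B lost it under 2. CaTA5 (Et_1A_007426) had 284.2, 258.6, 195.2 and 259.4 CPM in ConR and 43.5, 49.4, 25.01 and 34.5 CPM in ConS, a log2FC of 2.71 ± 0.259 (SE, adjusted p = 5e-08). CaTA5-1 (Et_8A_057406) went the other way, with 28.6 to 34.2 CPM in ConR and 58.0 to 66.8 CPM in ConS, and CaTA5-2 (Et_8A_057411) had 38.4 ± 2.99 CPM and 36.8 ± 4.72 CPM (SD, n = 4) and was not called. Genes of 1 name thus stood in each of the 3 classes.

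CaTA10 (Et_4B_039870) had 61.5 to 69.2 CPM in ConR, 91.0, 83.2 and 95.5 CPM in ConS S13, S14 and S16 and 389.0 CPM in ConS S15. Its log2FC of -1.31 (adjusted p = 0.00727) was -0.44 without ConS S15 (adjusted p = 0.0638). All 4 ConS libraries were above all ConR libraries.

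Of the 9 exchangers, which trade calcium against other cations, 5 were lower in roots and none was higher (55.6% called, near the 52.4% of all genes tested). Libraries were separated in 3 of these 5, against 85.9% of all genes called, and overlapped in CaE1 and CaE1-1. CaE1-2 (Et_4A_035362) had 2.19, 2.20, 1.98 and 2.06 CPM in ConR and 6.70, 10.2, 14.97 and 11.4 CPM in ConS, a log2FC of -2.35 ± 0.261 (SE, adjusted p = 3.8e-07), and CaME1 (Et_7A_050701), named as a mitochondrial exchanger, had 9.81 to 11.7 CPM and 20.7 to 27.3 CPM (log2FC -1.13, adjusted p = 4.65e-05). Of the 7 calcium uniporters, which in other organisms carry calcium into mitochondria, 3 were higher and 3 lower in roots. That is 85.7% called, against 52.4% of all genes tested. CaUP4 of 4A (Et_4A_035795) had 10.9, 8.001, 13.3 and 4.96 CPM in ConR and 0.419, 0.595, 0.869 and 0.988 CPM in ConS, whereas the other gene of that name (Et_7B_055244) had 17.4 to 20.2 CPM and 36.6 to 54.7 CPM. The two-pore channel TPCaC1 (Et_3A_024662), a type of channel known from the vacuolar membrane, had 7.44 to 11.9 CPM in ConR and 14.1 to 35.4 CPM in ConS (log2FC -1.43, adjusted p = 0.00209). The 13 calcium transporters that were not called had log2FC values from -0.55 (CaE1-3) to 0.40 (CaCC1).

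Of the 35 calcium signaling genes 34 were called (97.1%, against 52.4% of all genes tested), of which CDPK7, CDPK14 and CBP14 lost the call under 5, 8 and 7 of 18 alternatives. CDPKs bind calcium through their own domain and then phosphorylate other proteins, and all 14 were called, 11 higher and 3 lower in roots, against 28.7% and 23.7% of all genes tested. CDPK12 (Et_4A_032792) had 67.1, 61.8, 78.7 and 67.3 CPM in ConR and 8.71, 8.08, 8.98 and 6.08 CPM in ConS, a log2FC of 3.11 ± 0.164 (SE, adjusted p = 1.71e-11). CDPK2 (Et_9B_064669) and CDPK1 (Et_9A_062108) had log2FC values of 3.98 (adjusted p = 6.72e-09) and 3.06 (adjusted p = 3.89e-06), with 8.34 to 19.8 CPM and 8.57 to 17.2 CPM in ConR, in both cases highest in S11. CDPK13 (Et_4B_036955) had 69.2 to 87.4 CPM in ConR and 10.6 to 14.7 CPM in ConS (log2FC 2.701, adjusted p = 4.12e-10). The 3 CDPKs higher in shoots were CDPK4, CDPK5 and CDPK11.

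CDPK4 (Et_7A_052314) had 50.1, 37.9, 45.6 and 22.8 CPM in ConS and 5.11, 4.24, 6.18 and 3.90 CPM in ConR, a log2FC of -3.004 ± 0.288 (SE, adjusted p = 5.2e-08). CDPK5 (Et_7B_054972) had 15.3 to 28.7 CPM in ConS and 2.77 to 3.85 CPM in ConR (log2FC -2.64, adjusted p = 3.14e-08). CDPK11 (Et_1A_008319) had 36.0 to 104.9 CPM in ConS and 8.77 to 12.5 CPM in ConR (log2FC -2.45, adjusted p = 6.34e-07). The single Calcineurin B gene (Et_8B_060076), named after the regulatory subunit of a calcium-dependent phosphatase of animals and yeast, was higher in roots with 10.3 to 13.5 CPM against 5.19 to 6.04 CPM. Of the 3 calcium/calmodulin-dependent kinases, CCDSTK2 and CCDSTK3 were higher (1.22 and 1.74) and CCDSTK1 lower (-0.96) in roots.

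The calcium-binding proteins had a median absolute log2FC of 1.67, and 2 of the 17 had the highest log2FC values of the list. CBP11 (Et_3A_023424) had 239.7, 490.7, 151.3 and 383.5 CPM in ConR and 1.34, 1.53, 1.06 and 0.532 CPM in ConS, a log2FC of 8.14 ± 0.414 (SE, adjusted p = 1.11e-11). CBP12 (Et_3B_027891) had 78.3, 165.8, 48.3 and 110.1 CPM in ConR and 0.502, 0.425, 0.386 and 0.076 CPM in ConS, a log2FC of 8.16 ± 0.438 (SE, adjusted p = 2.04e-11). The root libraries stood in the same order in both genes, with S10 highest and S11 lowest. Of the 17 CBPs 7 were higher and 9 lower in roots, against 28.7% and 23.7% of all genes tested.

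Among the CBPs lower in roots, CBP7 (Et_2B_022523) had 8.59 to 15.2 CPM in ConR and 68.5 to 110.6 CPM in ConS (log2FC -2.70, adjusted p = 1.42e-08), and CBP1 (Et_1B_010286) had 23.4 to 32.4 CPM and 79.0 to 113.8 CPM (log2FC -1.85, adjusted p = 2.82e-06). CBP6 (Et_9B_066197) had 6.11 to 14.8 CPM in ConR, 34.8 to 39.6 CPM in 3 ConS libraries and 124.3 CPM in ConS S15 (log2FC -2.54, adjusted p = 1.06e-04). Its groups did not overlap with or without that library, and without it the log2FC was -1.89 (adjusted p = 2.97e-04). CBP8 (Et_2A_018508) had 0.664, 1.85, 0.721 and 0.851 CPM in ConR and 5.78 to 9.85 CPM in ConS (log2FC -2.82, adjusted p = 1.59e-06). CBP13 was the only signaling gene that was not called (log2FC 0.45, adjusted p = 0.0678), and it was called under 6 of 18 alternatives, over which its adjusted p ran from 0.0104 to 0.214.

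Signaling genes with consecutive names and identifiers of the A and B form of 1 chromosome number differed in the same direction in 11 of 11 cases, 7 higher and 4 lower in roots. No source used here calls them copies of each other, and the pairs were picked after their values were seen. Such pairs were not formed over all genes or in the other families, so no share stands beside this count. The calls of CDPK7 and CBP14, which are among the pairs, had overlapping libraries and were lost under 5 and 7 of 18 alternatives. The log2FC values were 8.14 and 8.16 for CBP11 and CBP12, 1.82 and 1.83 for CDPK9 and CDPK10, and 0.60 and 0.58 for CDPK7 and CDPK8. The widest gap was that of CBP16 (-2.05) and CBP17 (-0.86). Reads that match both forms of a gene equally well are not counted by a count of uniquely mapped reads.

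The same comparison at low Ca2+, LCR vs LCS, compares the other 8 libraries, with the spread estimated in the same fit over all 16. It called 42.7% of the genes tested. Library totals ran from 6276818 to 10166944 counts in LCR and from 9959542 to 11720368 in LCS. In each tissue they were below those at control Ca2+. Fewer counts give fewer calls, and the part of depth in the number called was not tested. Of the 84 listed genes called at control Ca2+, 68 were also called in LCR vs LCS in the same direction. Over all genes, 20278 were called at both levels, which is 68.2% of the calls at control and 83.7% of those at low Ca2+, and 264 of these had opposite signs. The difference between the 2 tissue contrasts was tested as an interaction, and passed the threshold for 3351 genes (5.91%) and for 14 of the listed genes.

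In each of these 14 listed genes the tissue difference was larger in size at control Ca2+, as it was in 2667 of the 3351 genes (79.6%). Nramp5 had 228.7 ± 50.1 CPM in ConR, 96.1 ± 17.6 CPM in LCR, 1.299 ± 0.537 CPM in ConS and 3.84 ± 2.0 CPM in LCS (SD, n = 4), and its log2FC of roots over shoots stood at 7.46 at control and 4.63 at low Ca2+ (adjusted p of the difference 0.00236, edgeR). CBP11 had log2FC values of 8.14 and 5.79 (adjusted p of the difference 0.0092), CDPK12 of 3.11 and 1.44 (0.000274), and CDPK4 of -3.004 and -1.37 (0.0172). OPT4 had 2.50 at control and 0.39 at low Ca2+ (0.029). CaTA9 (Et_10A_001147) was lower in roots at control (-0.77) and had 0.46 at low Ca2+, where it was not called (0.0139 for the difference).

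**Figure D5:**
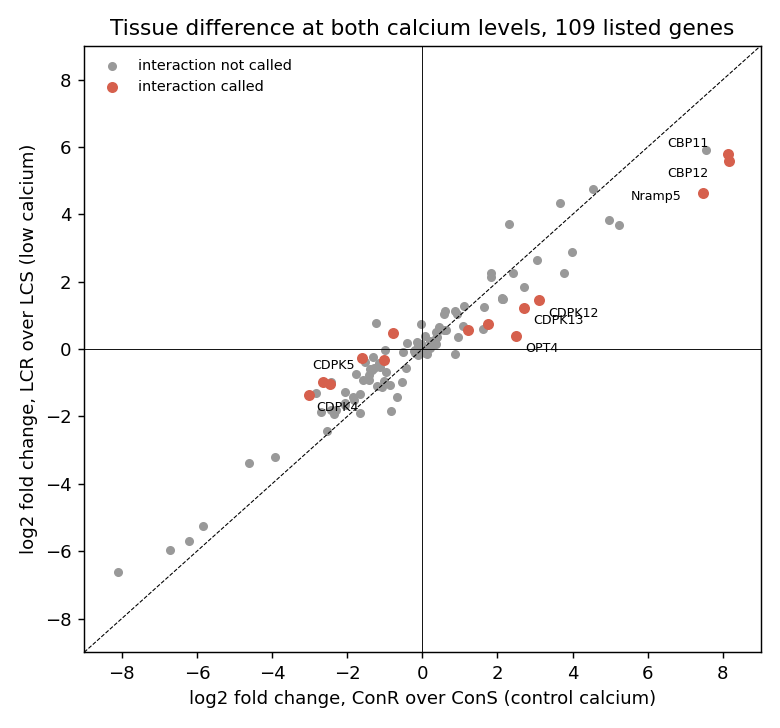
log2FC of roots over shoots at control Ca2+ (ConR over ConS, horizontal axis) and at low Ca2+ (LCR over LCS, vertical axis) for the listed genes, 1 point per gene, with the dashed line at equal values. The 14 genes in red passed the test of the difference, and they lie between the dashed line and the horizontal zero line except CaTA9, which crosses zero.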

How the data were processed

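RNA-seq counts of 16 libraries were used, 4 per group. According to the paper's methods, the authors trimmed the reads with sickle, aligned them with hisat2 to the tef draft genome and used htseq-count in its reverse-strand mode on uniquely mapped reads. The deposited counts are whole numbers for 68255 genes without normalization. The methods name an RNA library kit that they do not describe as directional, so a gene and an antisense neighbour may not be told apart. Library totals in the deposited counts are far below the uniquely mapped reads listed by the paper. Why was not tested, and it bears on counts of 0.

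Counts were scaled by TMM and tested with edgeR 4.0.16 in R 4.3.3 (estimateDisp, glmQLFit, glmQLFTest), with a term per group over all 16 libraries, for 56746 genes, those detected in 4 or more libraries. P-values were adjusted by Benjamini-Hochberg over all genes tested. The standard error (SE) given for an edgeR log2FC was derived from the test, as the absolute log2FC divided by the square root of the F statistic. For genes with few counts in a tissue it is a rough measure. Concentration measures were compared by exact permutation (SciPy 1.17.1), and shares carry 95% Wilson intervals. The paper's tool, DESeq2 1.42.0, and limma-voom (limma 3.58.1) were run as alternatives, together with other scalings and filters, the 8 control libraries alone, 2 other thresholds and each of the 8 control libraries left out. The omission of ConR S11 and ConS S15 together was chosen after seeing the data. The steps were checked on simulated data.

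The listed genes are those given by identifier in the paper's heatmap legends. Those with the largest changes per family are described by library, and of genes without a name the 2 most abundant per direction with separated libraries. Members and lists were chosen with earlier results of these data known. No genome was used and no sequence is shown. The deposited counts cover RNA only, so mineral contents and growth were not analysed here.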

Additional observations from a re-analysis of the deposited data

Results flagged for a closer look

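Over all genes with a mean of at least 1 CPM, Dixon's gap rule set ConR S9 to S12 apart in 0.467%, 0.566%, 4.88% and 1.38%. For ConS S13 to S16 it was 0.757%, 0.667%, 2.92% and 2.47%. The rule's nominal rate of 1 in 20 assumes independent normal values, whereas genes share the same libraries. Whether the listed genes exceed the rate over all genes was not tested. In 198 checks of a listed gene or concentration measure within ConR or ConS, the nominal rate would give 9.9. A library lay far from the other 3 in 16 of these checks. ConS S15 was the high library in 8 of them, with 31.2 CPM for CaUP6 (9.42 to 11.9 in the others), 389.0 CPM for CaTA10 (83.2 to 95.5), 81.1 CPM for CaTA10-1 (38.7 to 41.9), 13.04 CPM for VIT1 (5.53 to 6.70), 117.6 CPM for Nramp1 (1.52 to 15.2), 10.6 CPM for CBP3 (4.51 to 5.24), 124.3 CPM for CBP6 (34.8 to 39.6) and 110.6 CPM for CBP7 (68.5 to 73.4). ConR S11 was the high library in 4, with 46.6 CPM for CaTA10-1 (34.6 to 36.1), 79.9 CPM for OPT3 (14.3 to 19.3), 19.8 CPM for CDPK2 (8.34 to 9.63) and 41.7 CPM for CDPK3 (19.4 to 22.1). ConS S16 was low for GLR2.4 (11.4 CPM) and CCDSTK1 (23.5 CPM), ConS S14 was low for CaCC1 (102.3 CPM) and ConR S10 was high for CBP8 (1.85 CPM). The part of these libraries in the tissue differences was measured by leaving them out.

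The tissue difference at control Ca2+ differed from that at low Ca2+ (edgeR interaction) by 2.83 for Nramp5, 2.58 for CBP12, 2.36 for CBP11, 2.11 for OPT4, 1.67 for CDPK12, 1.48 for CDPK13, 0.99 for CCDSTK3 and 0.66 for CCDSTK2 on the log2 scale. It differed by -1.66 for CDPK5, -1.64 for CDPK4, -1.42 for CDPK11, -1.34 for CaTA9-1, -1.24 for CaTA9 and -0.69 for CaTA5-1. With 1 of the 8 control libraries left out (the low Ca2+ libraries were all kept) the number of listed genes past this threshold was 11 to 16.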

How the results depend on the processing

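The number of genes called stayed within 1.5 times of the 29739 under every alternative, from 23612 where a 2-fold change was also required to 30424 with limma-voom, and the listed genes called stayed between 28 and 41 higher and 38 and 46 lower in roots. DESeq2 called 30203 genes. Upper-quartile scaling moved the median log2FC over the genes tested from 0.10 to 0.26. The counts of root-only and shoot-only genes moved, to 4 and 6 at 5 CPM, 669 and 308 with up to 3 counts in the other tissue, 127 and 72 after thinning to the smallest total, and 146 and 83 without ConR S11 and ConS S15. With 1 library left out they ran from 80 to 144 and from 48 to 77, where an omission can only keep or add such genes. The share on the top 100 genes differed by -11.4 to -13.2 percentage points with 1 library left out, where the smallest p that 3 against 4 allow is 0.0571, and by -11.6 without both libraries, where it is 0.1 (exact permutation). The listed genes past the interaction test numbered 9 with limma-voom and 19 with DESeq2. Nramp1 turned from -1.24 to 0.0031 with limma-voom, 0.86 without ConS S15 and 0.12 without both libraries, and with 1 library left out it ran from -2.01 to 0.86. Of the 84 listed genes called, 10 lost the call under some alternative: CaTA10 and CaTA3 of 7B under 2 of 18, CNGC17-20 and CDPK7 under 5, Nramp6 under 6, CaMC-3, CNGC20 and CBP14 under 7, CDPK14 under 8 and CaTA4 under 13. Of those not called, OPT3 was called under 8, CBP13 under 6, CaCC1 under 3 and OPT7 under 1. No paired analysis was possible because the labels give the groups no shared replicate number. At this depth, genes under about 1 CPM rest on few counts per library.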
